A study of Mus musculus with 6 samples.

Results

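The platelet-derived growth factor (PDGF) system was followed across the cell classes of mouse brain tissue in which Foxr2 was expressed. Its 6 genes were taken by symbol: the receptors Pdgfra and Pdgfrb and the ligands Pdgfa, Pdgfb, Pdgfc and Pdgfd. They are 6 of the 32285 mouse genes counted in each library.

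RNA and open chromatin were read from the same nuclei with the 10x Multiome assay. Plasmids had been delivered into neural stem cells of the ganglionic eminences of C57BL/6J embryos by in utero electroporation. In both groups a piggyBac transposon expressed V5-tagged Foxr2 and GFP under the CAG promoter, which is active in most cells. A second transposon carried the luciferase Akaluc, also with GFP. The Foxr2 p53LOF group also received Cas9 with a guide RNA against Trp53, whereas the Foxr2 alone group had Foxr2 without the loss of p53. The labels name brain tumor tissue for both groups and give no age, whereas the study describes the Foxr2 alone tissue as lesions that do not proliferate. Electroporated and host cells were sequenced together, so the tissue is a mixture. The results below rest on 1 library of each genotype, Foxr2 p53LOF replicate 1 and Foxr2 alone replicate 1. The counts of Foxr2 alone replicate 2 were not analysed here, and its peak list was used for the presence of a peak. With 1 library per genotype no test of the genotypes was possible, and each interval below is a 95% interval that covers counting error only.

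PDGF ligands act as dimers on 2 receptor tyrosine kinases. PDGF-AA, made from Pdgfa, and PDGF-CC, made from Pdgfc, act mainly on PDGFR-alpha. PDGF-BB binds both receptors, and PDGF-DD acts mainly on PDGFR-beta. PDGF-CC and PDGF-DD are secreted as latent proteins whose CUB domain must be cut off before they can bind. In the brain PDGFR-alpha marks oligodendrocyte progenitor cells (OPC) and drives their division and migration, and PDGFR-beta marks mural cells, the pericytes and smooth muscle cells that are drawn to vessels by endothelial PDGF-BB.

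After filtering, Foxr2 p53LOF kept 8359 nuclei and Foxr2 alone 8316, with a median of 5527 and 3637 UMIs per nucleus (unique molecular identifiers, which count RNA molecules). The libraries shared 140 barcodes. Foxr2 stood at 42.6 CPM (UMIs per 1000000 UMIs of the nuclei summed) in Foxr2 p53LOF and at 3.61 in Foxr2 alone. Trp53 stood at 33.6 and 12.9 CPM, and because a guide cuts the coding sequence, the level of the transcript does not check the loss of the protein. Clusters were named from marker genes that did not include a PDGF gene. The PDGF genes were also kept out of the variable genes used for clustering. Pdgfra, Pdgfd and Pdgfrb were still among the 10 leading genes of, in turn, the OPC-like cluster, an astrocyte-like cluster and the mural-like nuclei. In Foxr2 p53LOF, 2 clusters were vector-bearing, that is, the share of their nuclei with open-chromatin (ATAC) counts on the reporter vector was at least 3 times that of immune-like nuclei. One was named COP-like, after committed oligodendrocyte precursors (1196 nuclei, 27.3% with a vector count), and the other OPC-like (1160 nuclei, 30.3%). The share in immune-like nuclei was 2.18%. The vector-bearing OPC-like cluster was mixed: its median OPC marker stood at 208 CPM and its median astrocyte marker at 243 CPM, against 2681 and 63.5 CPM in the OPC-like nuclei below the limit. With called doublets kept, its counterpart of 1138 nuclei was named astrocyte-like. The last group, of 94 nuclei in Foxr2 p53LOF and 168 in Foxr2 alone, is called OPC-like without a prefix. In Foxr2 alone no peak was called on the vector, so vector-bearing clusters could not be defined there.

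Pdgfra, the receptor of OPC, had its highest level in OPC-like nuclei of both libraries, at 1235 CPM in Foxr2 p53LOF (interval 1117 to 1363, 399 UMIs) and 912 CPM in Foxr2 alone (826 to 1004, 412 UMIs). The vector-bearing nuclei held it at a much lower level, 161 CPM in the COP-like (154 to 169) and 163 CPM in the OPC-like cluster (155 to 171). These 2 clusters did not differ beyond counting error although their marker genes did. Per nucleus the vector-bearing clusters had 1.49 Pdgfra UMIs and the OPC-like nuclei 4.24. Over all vector-bearing nuclei the log2 ratio to OPC-like nuclei was -2.93 (-3.08 to -2.78), and on UMIs per nucleus it was -1.51.

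Among the other classes of Foxr2 p53LOF, fibroblast-like nuclei, from the coverings of the brain and vessels, stood between these levels, at 351 CPM (239 to 498, 35 nuclei). Pdgfra then ran from 77.0 CPM in endothelial-like nuclei (39.8 to 134) through 55.5 in immune-like (50.5 to 60.97), 41.1 in astrocyte-like (26.0 to 61.6) and 35.0 in oligodendrocyte-like (29.5 to 41.3) to 11.6 in neuron-like nuclei (10.3 to 13.0). Each neighbour in this order overlapped the next up to the oligodendrocyte-like class, and neuron-like nuclei lay below all of them. Of these classes, 4 held far less in Foxr2 alone: 5.30 CPM in astrocyte-like, 2.80 in oligodendrocyte-like, 1.76 in immune-like (1 UMI in 425 nuclei) and 0.998 in neuron-like nuclei. Its fibroblast-like and endothelial-like nuclei had 1 UMI each, at 145 (3.68 to 811) and 15.7 CPM (0.397 to 87.5), with intervals that overlap those of Foxr2 p53LOF.

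**Figure D1:**
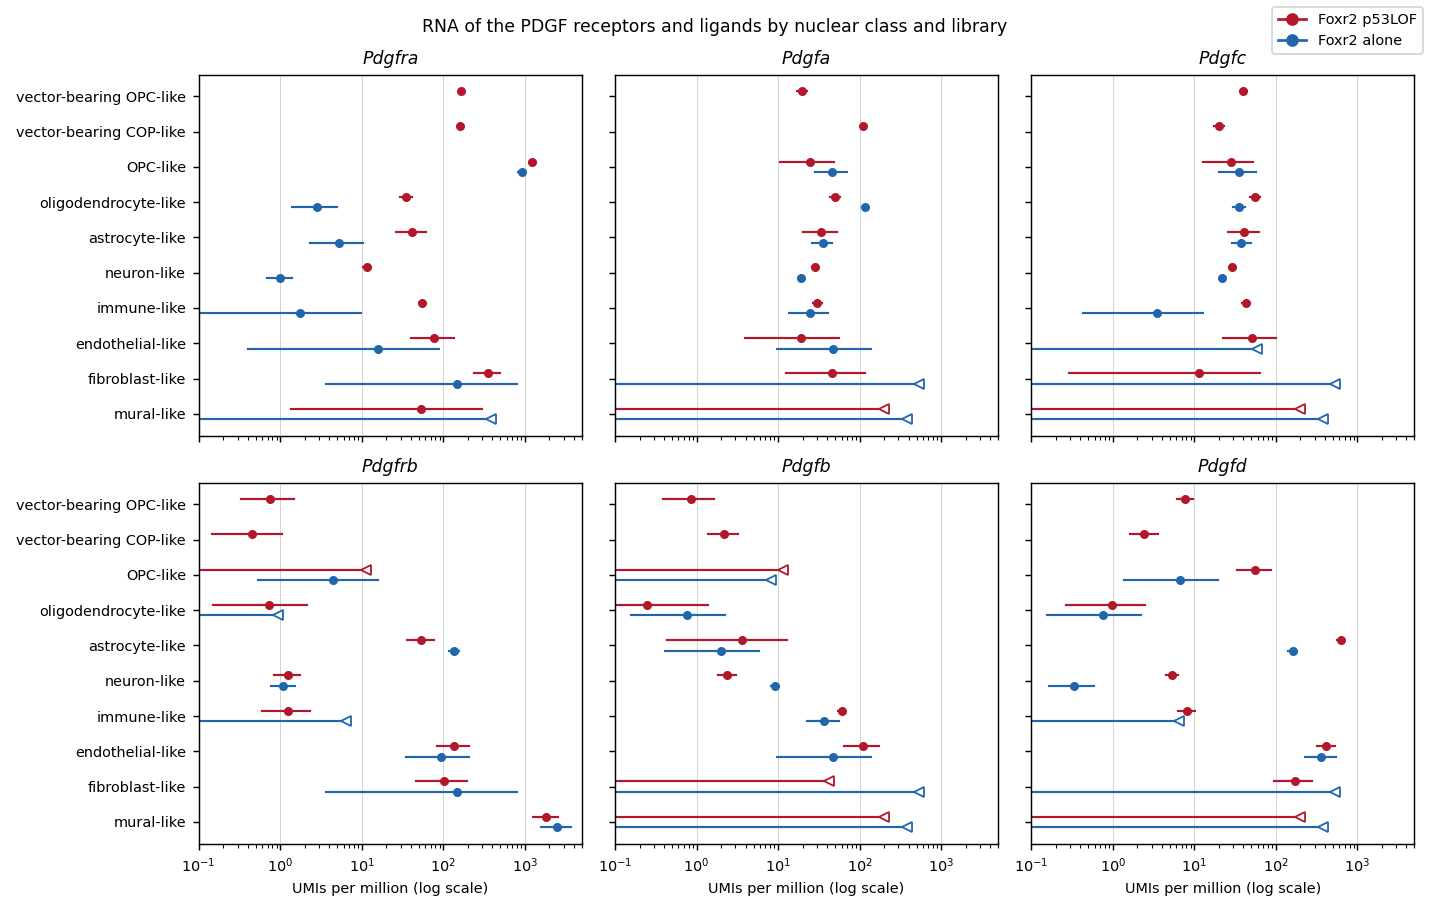
RNA of the 6 genes by nuclear class, in CPM on a log axis. Points are the 2 libraries, lines are 95% Poisson intervals, and open triangles mark the upper limit where no UMI was counted; groups of at least 5 nuclei are drawn. Pdgfra peaks in OPC-like nuclei at 1235 and 912 CPM, Pdgfrb in mural-like nuclei at 1819 and 2484 CPM, and Pdgfd in astrocyte-like nuclei of Foxr2 p53LOF at 625 CPM. The mural-like group comes from a vascular split taken after Pdgfrb by sub-cluster had been seen.

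The Pdgfra of these other classes is given beside the vector transcript. GFP, which only electroporated cells and their offspring should make, stood at 654 CPM in vector-bearing nuclei, and at 261 CPM in immune-like, 190 in oligodendrocyte-like and 76.5 in neuron-like nuclei of Foxr2 p53LOF. The number of Pdgfra UMIs per GFP UMI was 0.248 in vector-bearing nuclei (0.239 to 0.257), 0.213 in immune-like (0.192 to 0.236), 0.184 in oligodendrocyte-like (0.153 to 0.221) and 0.152 in neuron-like nuclei (0.134 to 0.172). It was 6.44 in OPC-like (4.91 to 8.55) and 1.29 in fibroblast-like nuclei (0.734 to 2.30). Astrocyte-like nuclei had 657 GFP CPM but a ratio of only 0.0625 (0.0391 to 0.0952). The intervals of immune-like, oligodendrocyte-like and neuron-like nuclei all lay below that of the pooled vector-bearing nuclei. By cluster, the ratio was 0.227 in COP-like (0.216 to 0.239) and 0.273 in OPC-like vector-bearing nuclei (0.259 to 0.288). The COP-like interval overlapped those of immune-like and oligodendrocyte-like nuclei and lay above that of neuron-like nuclei. The part of free RNA or of electroporated nuclei in the Pdgfra of immune-like, oligodendrocyte-like and neuron-like nuclei was not tested.

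**Figure D2:**
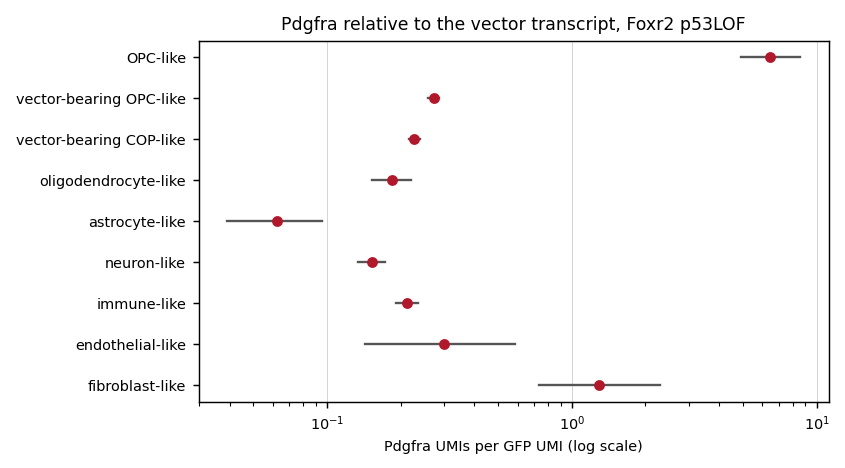
Pdgfra UMIs per GFP UMI in each class of Foxr2 p53LOF with at least 20 GFP UMIs, on a log axis, with 95% intervals of the ratio of counts. OPC-like (6.44) and fibroblast-like nuclei (1.29) stand above the vector-bearing clusters, and immune-like, oligodendrocyte-like and neuron-like nuclei lie between 0.152 and 0.213.

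At a depth made equal by drawing 1000 UMIs from each nucleus, nuclei with fewer were left out: 77 of the 2356 vector-bearing nuclei and 40 of the 1928 immune-like nuclei of Foxr2 p53LOF, and 144 of 425 immune-like and 914 of 3020 oligodendrocyte-like nuclei of Foxr2 alone. Of the rest, 14.9% of vector-bearing nuclei had a Pdgfra UMI (13.5 to 16.4; 340 of 2279). The share was 59.6% in OPC-like nuclei of Foxr2 p53LOF (49.0 to 69.6) and 61.9% in those of Foxr2 alone (54.1 to 69.3). In immune-like nuclei, which should lack the gene, it was 4.08% in Foxr2 p53LOF (3.23 to 5.07) and 0 of 281 nuclei in Foxr2 alone, which allows up to 1.3%. Without the drawing, 56.2% of vector-bearing and 14.0% of immune-like nuclei of Foxr2 p53LOF had a UMI, at median depths of 7762 and 2781 UMIs. The share in vector-bearing nuclei thus lay above that of immune-like nuclei with and without the drawing. A UMI of the cycling genes Mki67 or Top2a was found in 14.3% of the COP-like vector-bearing nuclei with Pdgfra (9.28 to 20.7) and in 13.4% of those without it (11.3 to 15.7). In the OPC-like vector-bearing cluster the shares were 16.2% (11.1 to 22.4) and 13.5% (11.4 to 15.8), so no difference was detectable at this depth.

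Several peaks at Pdgfra were more open in OPC-like than in vector-bearing nuclei. The gene lies on the plus strand at chr5:75152292-75198215 of GRCm38 (mm10) and has several start sites, of which the last annotated one in the feature list is at 75155899. In the OPC-like nuclei of Foxr2 p53LOF a peak 3.61 kb upstream of the first start site had 45.4 ATAC CPM, that is, counts per 1000000 peak counts of the class (24.5 to 76.8), and a peak 11.3 kb downstream of it had 63.8 (38.4 to 99.7). The upstream peak had 2.13 in vector-bearing nuclei (1.43 to 3.05), and the values of oligodendrocyte-like, immune-like and neuron-like nuclei, 1.11 to 1.87, had intervals that overlap this one. The peak at 11.3 kb had 17.4 in the COP-like (14.5 to 20.7) and 8.99 in the OPC-like vector-bearing cluster (6.83 to 11.6), and 0.862 to 1.32 in oligodendrocyte-like, neuron-like and immune-like nuclei. It was thus open in both vector-bearing clusters, below OPC-like nuclei and above those 3 classes. Of the 2 promoter peaks, the one 1.05 kb upstream had 28.6 in OPC-like (12.7 to 55.2) and 6.03 in vector-bearing nuclei (4.81 to 7.48). The other, at the later start site 3.96 kb downstream, had 13.4 (3.66 to 34.4) and 26.1 (23.4 to 28.9), with intervals that overlap. Over both, OPC-like nuclei had 42.0 (22.0 to 72.6) and vector-bearing nuclei 32.1 (29.2 to 35.2), which did not differ beyond counting error. In Foxr2 alone the matching peaks of OPC-like nuclei had 32.1 (upstream), 114 (at 11.2 kb, 90.9 to 141) and 31.4 ATAC CPM (at the later start site), and the peak at 11.2 kb had at most 1.25 in the 4 other classes shown.

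The centres of the 2 peaks with the strongest contrast, picked after their values were seen, are given from the GRCm38.p6 reference, plus strand. The first, chr5:75148579-75148778, lies in no annotated gene. The second, chr5:75163511-75163710, overlaps a coding exon of Pdgfra (75163535 to 75163852) and the intron before it. Capitals mark the letters of any of 6 motifs searched on both strands: ACAATG (SOX), AGGAAG (ETS), CAGCTG and CACGTG (E-boxes), GTAAACA (forkhead) and TGTGGT (RUNX).
Pdgfra upstream peak: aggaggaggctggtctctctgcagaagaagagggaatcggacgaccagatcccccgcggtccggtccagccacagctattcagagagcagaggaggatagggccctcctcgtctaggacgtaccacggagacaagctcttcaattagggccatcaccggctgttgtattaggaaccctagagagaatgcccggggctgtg
Pdgfra exon peak: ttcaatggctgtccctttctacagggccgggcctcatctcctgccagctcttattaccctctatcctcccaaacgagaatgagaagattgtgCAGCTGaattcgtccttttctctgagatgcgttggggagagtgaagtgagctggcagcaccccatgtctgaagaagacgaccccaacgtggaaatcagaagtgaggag
The upstream window held none of the 6, and the exon window held CAGCTG once. Among the central 200 bases of 112883 peaks of this library, 18.4% held CAGCTG, 12% ACAATG, 27.1% AGGAAG, 4.39% CACGTG, 2.60% GTAAACA and 14.8% TGTGGT. A match describes letters only.

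**Figure D3:**
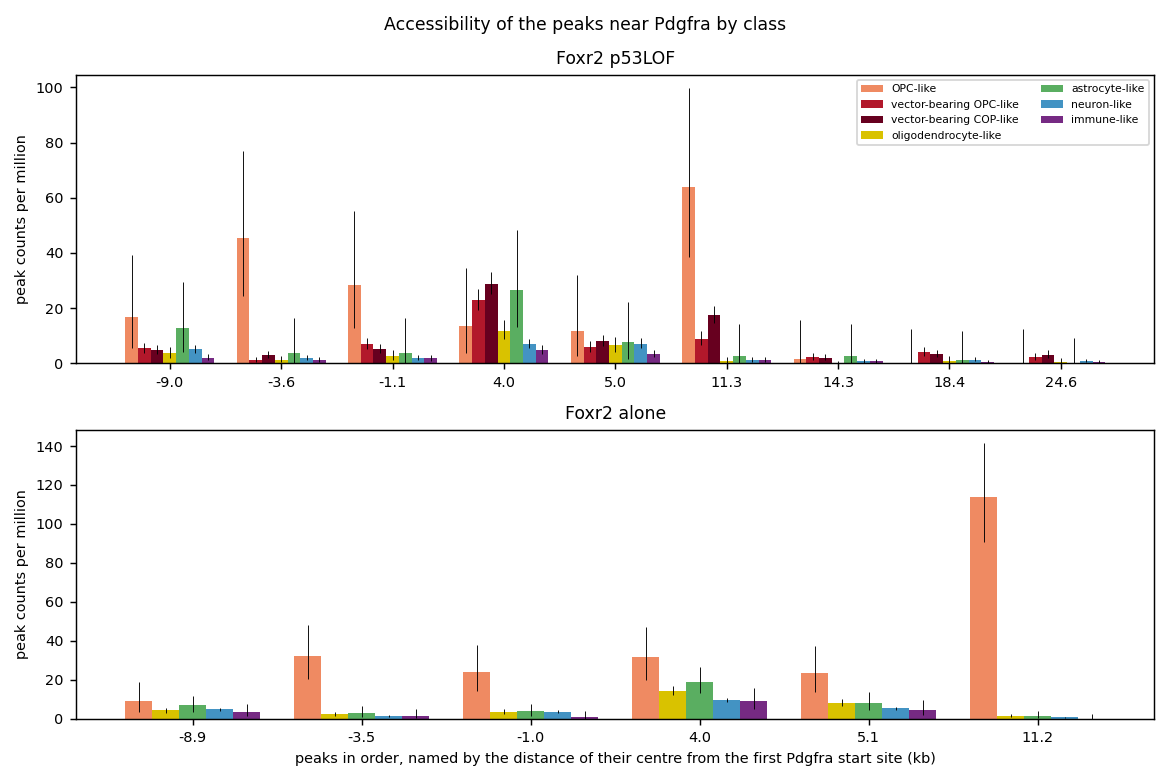
ATAC CPM (counts per 1000000 peak counts) in the peaks from 10 kb before to 25 kb after the first Pdgfra start site, by class, with 95% Poisson intervals on fragments; bars start at 0 and peaks are drawn in order, each named by its distance in kb. OPC-like nuclei lead at the upstream peak and at the exon peak in both libraries. At the later start site of Foxr2 p53LOF the intervals of OPC-like nuclei (13.4) and vector-bearing nuclei (26.1) overlap.

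Pdgfrb, the receptor of mural cells, lay at chr18:61045150-61085061 and was all but absent from vector-bearing nuclei, at 0.601 CPM (0.320 to 1.03, 13 UMIs in 2356 nuclei). Mural-like nuclei had 1819 CPM in Foxr2 p53LOF (1260 to 2542) and 2484 CPM in Foxr2 alone (1592 to 3696), from only 9 and 7 nuclei. Of the 2 vascular splits tried, only the one taken after Pdgfrb by sub-cluster had been seen gave this group. Its Pdgfrb level is thus not independent of that choice. The whole vascular cluster stood at 243 (187 to 311) and 386 CPM (262 to 548). Astrocyte-like nuclei also carried Pdgfrb, at 53.6 CPM in Foxr2 p53LOF (36.2 to 76.5, 30 UMIs) and 136 CPM in Foxr2 alone (118 to 156, 205 UMIs). In Foxr2 alone this class held 74.8% of all Pdgfrb UMIs (69.2 to 79.8) in 5.11% of the nuclei. At equal depth, 13.7% of its nuclei had a UMI (10.6 to 17.3), against 0 of 2106 oligodendrocyte-like nuclei, which allows up to 0.175%. The promoter followed the RNA in astrocyte-like nuclei, with 36.8 (20.3 to 61.1) and 47.1 ATAC CPM (37.6 to 58.4), against 6.87 in vector-bearing (5.55 to 8.39), 1.97 and 1.83 in oligodendrocyte-like and 2.75 and 4.2 in neuron-like nuclei. Endothelial-like nuclei had 135 Pdgfrb CPM in Foxr2 p53LOF, and 315 CPM when the vascular cluster was split more coarsely, with no mural-like group, so the share of mural RNA in that value is uncertain.

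Among the ligands, Pdgfa, which encodes the A chain, had its highest levels per UMI in vector-bearing COP-like nuclei and oligodendrocyte-like nuclei. It stood at 111 CPM in the COP-like (104 to 117) and at 19.5 CPM in the OPC-like vector-bearing cluster (16.9 to 22.4). Thus the vector-bearing clusters that did not differ in the CPM of the receptor Pdgfra differed several-fold in the CPM of its ligand Pdgfa. Oligodendrocyte-like nuclei had 49.96 CPM in Foxr2 p53LOF (43.3 to 57.3) and 117 CPM in Foxr2 alone (106 to 128). Neuron-like (28.1 and 19.1 CPM), immune-like (30.4 and 24.6), astrocyte-like (33.9 and 35.1) and OPC-like nuclei (24.8 and 46.5) lay lower, and most of their intervals overlapped.

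Of the 2 vector-bearing clusters, the COP-like one had the more accessible Pdgfa promoter. Its 3 peaks together had 80.9 ATAC CPM in the COP-like vector-bearing cluster (74.6 to 87.7), 43.7 in the OPC-like one (38.8 to 49.1) and 88.9 (80.0 to 98.6) and 117 (110 to 124) in the oligodendrocyte-like nuclei of the 2 libraries. OPC-like nuclei, with less Pdgfa RNA, had 73.9 (46.3 to 112) and 84.7 (64.9 to 109). In Foxr2 p53LOF, neuron-like nuclei and immune-like nuclei, with less Pdgfa RNA than COP-like vector-bearing nuclei, had 67.1 and 71.0. At equal depth 9.0% of COP-like vector-bearing nuclei had a Pdgfa UMI (7.39 to 10.8), against 3.07% of immune-like nuclei (2.34 to 3.95). The share of the OPC-like vector-bearing cluster, 2.16%, was not above that of immune-like nuclei, whose own Pdgfa RNA and open promoter leave unsettled what a share at that level is. A UMI of both Pdgfa and Pdgfra was seen in 11 of 1122 COP-like vector-bearing nuclei, where the product of the 2 shares gives 14.5, and in 7 of 1157 of the OPC-like cluster, where it gives 3.87. At 1000 UMIs per nucleus most UMIs of a nucleus are not drawn, so these counts say little of which nuclei carry both. Pdgfa lies at chr5:138976014-138997370 on the minus strand, and the antisense gene 6330403L08Rik overlaps it. That gene had 163 UMIs against 2619 of Pdgfa in Foxr2 p53LOF. The study states default parameters for Cell Ranger ARC, which count reads on a gene's own strand.

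Pdgfc, the other ligand of PDGFR-alpha, was at similar levels in many classes of Foxr2 p53LOF. It was at 55.4 CPM in oligodendrocyte-like (48.4 to 63.1), 43.2 in immune-like (38.7 to 48.0), 41.1 in astrocyte-like (26.0 to 61.6), 28.7 in neuron-like (26.6 to 30.8) and 29.7 CPM in vector-bearing nuclei (27.5 to 32.1) of Foxr2 p53LOF. Within the vector-bearing nuclei it ran opposite to Pdgfa, with 20.1 CPM in the COP-like (17.6 to 23.0) and 39.8 CPM in the OPC-like cluster (36.1 to 43.8). Immune-like nuclei were not uniform: a cluster led by Cd74 and other antigen presentation genes had 55.4 CPM (49.5 to 61.9), and one led by Ly86 and Itgam had 10.0 CPM (5.94 to 15.8). In Foxr2 alone immune-like nuclei had 3.51 CPM (0.425 to 12.7, 2 UMIs). Neuron-like clusters ranged from 1.12 CPM to 60.8 CPM in Foxr2 alone, where the 2 clusters with Slc17a7 among their leading genes, the vesicular glutamate transporter of cortical excitatory neurons, had 60.8 (53.9 to 68.4) and 37.5 CPM (33.7 to 41.7). In Foxr2 p53LOF a cluster led by Slc6a3, the dopamine transporter, had 66.4 CPM (56.2 to 78.0), the highest of its 3 neuron-like clusters with at least 20 nuclei. The single promoter peak of Pdgfc, at chr3:81036454-81037240 in Foxr2 p53LOF, was present in each of the 3 peak lists. In Foxr2 p53LOF it had 8.47 to 15 ATAC CPM in the oligodendrocyte-like, neuron-like, immune-like and vector-bearing groups. In Foxr2 alone it had 18.9 in oligodendrocyte-like (16.3 to 21.7), 9.12 in neuron-like (8.06 to 10.3) and 2.31 in immune-like nuclei (0.559 to 6.29).

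Pdgfb, the ligand of both receptors, was higher in CPM in immune-like than in neuron-like nuclei of both libraries, whereas the class that held most of its UMIs differed between them. Immune-like nuclei had 60.3 CPM in Foxr2 p53LOF (55.0 to 66.0, 478 UMIs) and 36.9 in Foxr2 alone (22.8 to 56.4, 21 UMIs), and endothelial-like nuclei had 109 CPM in Foxr2 p53LOF (63.5 to 175, 30 nuclei) and 47.1 in Foxr2 alone (9.71 to 138, 3 UMIs in 16 nuclei). The intervals of these 2 classes overlapped in both libraries. The cluster led by Ly86 and Itgam had 105 CPM (90.8 to 121), the lymphoid cluster led by Gzmb 62.8 (38.8 to 95.9) and the Cd74-led cluster 46.3 (40.9 to 52.2). This is the reverse of their order in Pdgfc, where Cd74-led nuclei stood above the Ly86-led ones. Vector-bearing nuclei had 1.53 CPM (1.05 to 2.14). In Foxr2 p53LOF 80.9% of Pdgfb UMIs lay in immune-like nuclei (77.5 to 84.0), which were 23.1% of the nuclei and had 13.2% of all UMIs. In Foxr2 alone 91.1% lay in neuron-like nuclei (87.5 to 93.9), at only 9.26 CPM (8.25 to 10.4). Those nuclei had 83.5% of all UMIs of that library, so the share is near that of all genes. Immune-like nuclei, 5.11% of its nuclei with 1.44% of all UMIs, held 6.25%. The libraries held 1928 and 425 immune-like and 2264 and 4248 neuron-like nuclei. The antisense gene Gm41361 overlaps Pdgfb and was neuronal, at 16.8 and 18.1 CPM in neuron-like against 3.41 and 1.76 CPM in immune-like nuclei.

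Chromatin upstream of Pdgfb was open in immune-like nuclei of both libraries. Pdgfb lies at chr15:79995874-80014977 on the minus strand. A peak 15.9 kb upstream had 38.5 ATAC CPM in immune-like nuclei of Foxr2 p53LOF (34.1 to 43.4) and 35.4 in those of Foxr2 alone (26.5 to 46.2), against 2.24 and 0.758 in neuron-like and 1.37 in vector-bearing nuclei. The interval of the 30 endothelial-like nuclei (0.181 to 39.8) was too wide to place them. A peak 20.05 kb upstream had 27.2 (23.5 to 31.3), and the matching peak of Foxr2 alone 22.5 (15.6 to 31.4), against 1.3 and 1.03 in neuron-like nuclei. At the start site, 80014808 in the feature list, the called peaks differed, being centred 0.0785 kb upstream of it in Foxr2 p53LOF and 0.96 kb upstream in Foxr2 alone, and no peak was called within 1000 bases in Foxr2 alone replicate 2. In Foxr2 p53LOF the start site peak had 26.7 in immune-like (23.1 to 30.8) and 8.78 in neuron-like nuclei (7.01 to 10.9). In Foxr2 alone the peak at 0.96 kb had 8.92 (4.82 to 15.1) and 18.1 (16.6 to 19.7). These 2 peaks are different regions, and their values are not compared between the libraries. The centre of the peak 15.9 kb upstream, chr15:80030553-80030752, lies within Gm41361. It is shown because it carried the immune-like contrast in both libraries, and its capitals mark the 1 match, ACCACA, which is TGTGGT on the other strand.
Pdgfb upstream peak: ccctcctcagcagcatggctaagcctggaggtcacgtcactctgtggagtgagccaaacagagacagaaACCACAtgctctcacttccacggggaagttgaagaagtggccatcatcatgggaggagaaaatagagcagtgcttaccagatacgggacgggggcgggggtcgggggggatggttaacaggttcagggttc

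Pdgfd, the ligand of PDGFR-beta, was an astrocyte-like and endothelial-like gene in this tissue. Astrocyte-like nuclei had 625 CPM in Foxr2 p53LOF (561 to 694, 350 UMIs in 115 nuclei) and 162 CPM in Foxr2 alone (142 to 183, 244 UMIs in 425 nuclei), and endothelial-like nuclei 417 (322 to 531) and 361 CPM (229 to 542). Fibroblast-like nuclei of Foxr2 p53LOF had 170 CPM (95.1 to 280). Vector-bearing nuclei had 4.99 CPM (4.10 to 6.03), a log2 ratio of -6.97 to astrocyte-like nuclei of the same library (-7.29 to -6.65). At equal depth, 42.6% of astrocyte-like nuclei of Foxr2 p53LOF had a UMI (33.4 to 52.2) and 10.4% of those of Foxr2 alone (7.64 to 13.7), against 0.0661% and 0.0475% of oligodendrocyte-like nuclei. OPC-like nuclei had 55.7 CPM in Foxr2 p53LOF (33.0 to 88.1, 18 UMIs) and 6.64 in Foxr2 alone (1.37 to 19.4, 3 UMIs). The astrocyte-like nuclei of the libraries belonged mostly to different clusters, 109 of 115 to one led by A2m and Pdgfd itself and all 425 of Foxr2 alone to another. Pdgfrb, the receptor of Pdgfd, went the other way between the libraries in this class, with the lower level in Foxr2 p53LOF. A relation of ligand to receptor RNA among single astrocyte-like nuclei was not tested. No peak was called within 1000 bases of a Pdgfd start site (chr9:6168584-6378850, plus strand) in either library with counts, and 1 was in the list of Foxr2 alone replicate 2.

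The share of each gene's UMIs in a class was set beside that class's share of the nuclei and of all UMIs. Vector-bearing nuclei of Foxr2 p53LOF were 28.2% of the nuclei and had 36.0% of all UMIs, and they held 72.3% of the Pdgfra UMIs (71.0 to 73.6), 54.6% of the Pdgfa UMIs (52.7 to 56.5) and 32.6% of the Pdgfc UMIs (30.5 to 34.7). The last share is below their share of all UMIs, and Pdgfc stood at 29.7 CPM in them and 34.7 CPM in all other nuclei (32.9 to 36.6). They held 14.2% of Pdgfd, 8.61% of Pdgfrb and 5.58% of Pdgfb. Astrocyte-like nuclei, 1.38% of the nuclei, held 46.1% of Pdgfd (42.5 to 49.7), and the vascular cluster, 0.885%, held 42.4% of Pdgfrb (34.4 to 50.7). In Foxr2 alone, OPC-like nuclei were 2.02% of the nuclei and held 88.2% of Pdgfra (84.9 to 91.0). Neuron-like nuclei there had 83.5% of all UMIs and held 77.1% of Pdgfc and 53.5% of Pdgfa. Oligodendrocyte-like nuclei there, 36.3% of the nuclei with 9.92% of all UMIs, held 38.8% of Pdgfa. Astrocyte-like nuclei, with 3.81% of all UMIs, held 85.9% of Pdgfd. In Foxr2 p53LOF neuron-like nuclei had 42.0% of all UMIs but held 27.1% of Pdgfa. Its oligodendrocyte-like nuclei had 6.80% of all UMIs and held 7.79% of Pdgfa, near that share. The astrocyte-like nuclei of Foxr2 p53LOF, at 657 GFP CPM, are counted here outside the vector-bearing nuclei, since the share of nuclei with a vector count in their main cluster was 2.11 times that of immune-like nuclei. That share was 4.59%, from only 5 of the 109 nuclei of the cluster. With that cluster counted in, an alternative chosen after seeing the data, vector-bearing nuclei held 58.2% of Pdgfd (54.6 to 61.7) and 28.5% of Pdgfrb (21.4 to 36.4), so the placing of Pdgfd inside or outside them depends on the limit.

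**Figure D4:**
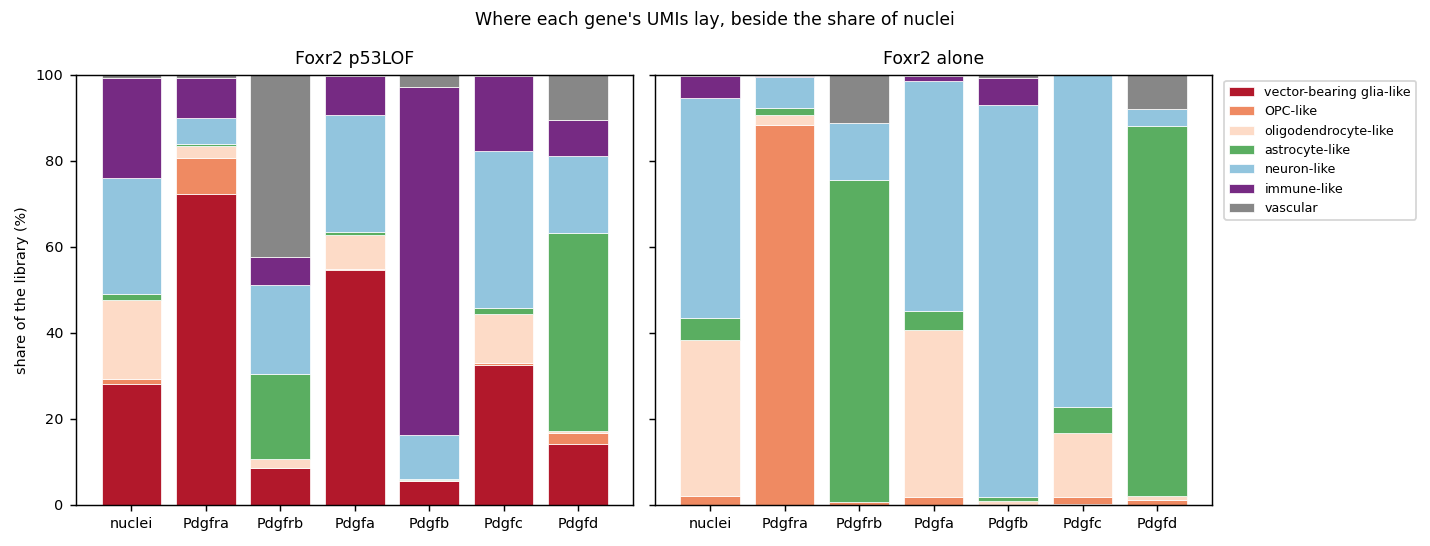
Share of each library's nuclei (first bar) and of each gene's UMIs by class, in percent. Vector-bearing nuclei of Foxr2 p53LOF take 72.3% of Pdgfra and 54.6% of Pdgfa from 28.2% of the nuclei, and Pdgfb has 91.1% of its UMIs in neuron-like nuclei of Foxr2 alone and 80.9% in immune-like nuclei of Foxr2 p53LOF. Neuron-like nuclei had 83.5% of all UMIs in Foxr2 alone.

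Each member was set against the other classes of Foxr2 p53LOF as a log2 ratio of CPM, and a difference of at least 2-fold was read against the share of all genes that passed it, both limited to genes with at least 10 CPM on 1 side. Over all other nuclei, 5 members could be compared, of which Pdgfra (2.21) and Pdgfa (1.09) were higher and Pdgfb (-3.25) and Pdgfd (-1.77) lower in vector-bearing nuclei, with 33.5% of genes past 2-fold in either direction. The Pdgfd ratio was 1.25 (1.04 to 1.46) with the astrocyte-like cluster counted as vector-bearing. Over immune-like nuclei, Pdgfra (1.54) and Pdgfa (1.12) were higher and Pdgfb (-5.30) lower among 4 (34.1% of genes). Over neuron-like nuclei, Pdgfra (3.80) and Pdgfa (1.23) were higher among 3 (46.1%). Over oligodendrocyte-like nuclei Pdgfra (2.21) was higher among 3 (38.7%), and Pdgfa, at 0.40, was not past 2-fold. Over astrocyte-like nuclei Pdgfra (1.98) was higher and Pdgfrb (-6.48) and Pdgfd (-6.97) lower among 5 (38.4%). Over OPC-like nuclei, Pdgfa (1.42) was higher and Pdgfra (-2.93) and Pdgfd (-3.48) were lower among 4 (38.5%). These counts are a description, with no test.

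Between the libraries the receptor and ligands moved within classes, although 1 library per genotype leaves animal, dissection and genotype impossible to tell apart. The OPC-like nuclei of the libraries shared a cluster, and so did the vascular nuclei before they were split, of which 35 of 74 were fibroblast-like in Foxr2 p53LOF and 5 of 28 in Foxr2 alone. Within that cluster, 12 of the 16 endothelial-like nuclei of Foxr2 alone lay in a sub-cluster with 0 nuclei of Foxr2 p53LOF. The other classes shared few clusters: the oligodendrocyte-like nuclei lay almost all in clusters mostly of their own library (1528 of 1528 in Foxr2 p53LOF and 3017 of 3020 in Foxr2 alone), as did the immune-like (1924 of 1928 and 416 of 425) and neuron-like nuclei (2240 of 2264 and 4216 of 4248). Ratios within these classes, as in astrocyte-like nuclei, thus compare different clusters. In OPC-like nuclei Pdgfra was higher in Foxr2 p53LOF by a log2 ratio of 0.44 (0.24 to 0.64). Over all glia-like nuclei the ratio was 1.07 (0.92 to 1.21), and it fell to 0.21 when nuclei needed at least 1000 genes and 1000 peak counts and stood at 3.06 on UMIs per nucleus. The mix of glial classes differed between the libraries, with vector-bearing clusters in Foxr2 p53LOF and 3020 oligodendrocyte-like nuclei in Foxr2 alone. Pdgfd was higher in astrocyte-like nuclei of Foxr2 p53LOF by 1.95 (1.71 to 2.19), and Pdgfrb lower by -1.34 (-1.95 to -0.78). Pdgfa was lower in oligodendrocyte-like nuclei, at -1.22 (-1.47 to -0.98), but at -0.18 on UMIs per nucleus. Oligodendrocyte-like nuclei had a median of 2455.5 UMIs in Foxr2 p53LOF and 1172 in Foxr2 alone. In neuron-like nuclei Pdgfa was at 0.56 (0.40 to 0.72) and Pdgfc at 0.38 (0.23 to 0.53), and Pdgfb was lower at -1.96 (-2.39 to -1.56). In immune-like nuclei Pdgfc was at 3.62 (1.76 to 6.67, from 2 UMIs in Foxr2 alone) and Pdgfb at 0.71 (0.08 to 1.42), or 2.33 on UMIs per nucleus. The raised Pdgfra of neuron-like (3.54), oligodendrocyte-like (3.64), astrocyte-like (2.96) and immune-like nuclei (4.98) is the Pdgfra set beside GFP above. At equal depth the share of nuclei with a UMI in each of these classes was at most that of immune-like nuclei, 4.08%. Pdgfd of neuron-like nuclei (4.02) stood at 5.39 and 0.333 CPM.

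**Figure D5:**
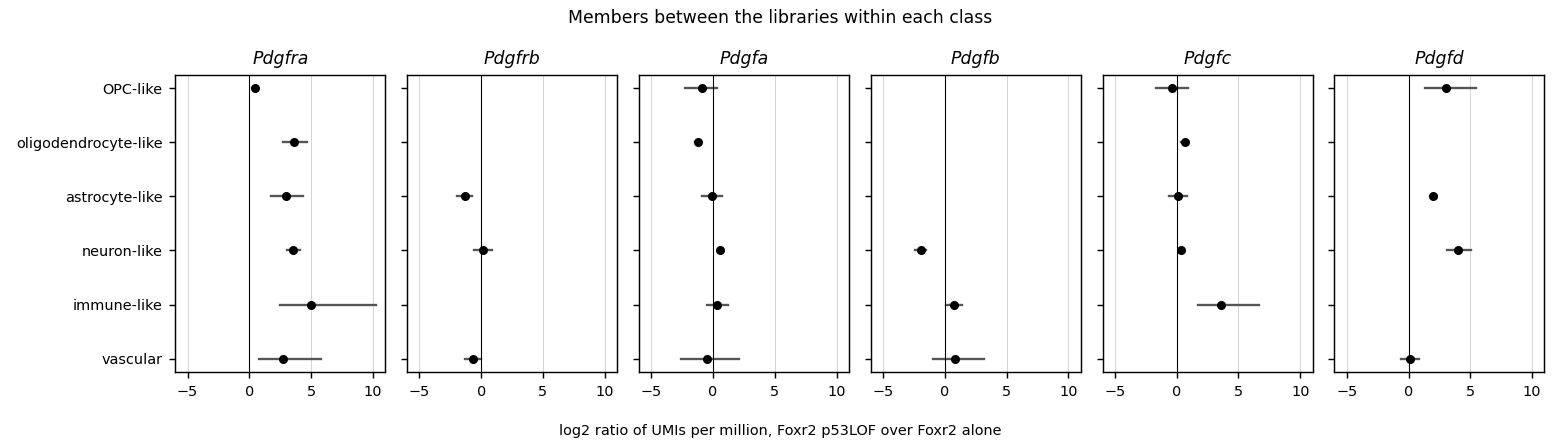
Log2 ratio of CPM, Foxr2 p53LOF over Foxr2 alone, for each gene within 6 classes, with the exact 95% interval of a ratio of 2 Poisson counts; pairs with fewer than 10 UMIs in all or with none in a library are not drawn. Pdgfd in astrocyte-like nuclei (1.95) and Pdgfra in every class lie right of 0, and Pdgfrb in astrocyte-like (-1.34) and Pdgfa in oligodendrocyte-like nuclei (-1.22) lie left of it.

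Read against all genes, 1 of 4 members compared was past 2-fold in OPC-like nuclei (33.1% of genes), 2 of 3 in oligodendrocyte-like (33.9%), 3 of 5 in astrocyte-like (35.6%), 1 of 3 in neuron-like (32.3%), 2 of 4 in immune-like (40.4%), 1 of 6 in vascular (39.7%) and 3 of 5 in all glia-like nuclei (43.9%). These counts, too, are a description with no test.

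Genes around the receptors were taken from 7 lists, chosen with earlier results of these data known, so their counts are a description only. They were compared between vector-bearing and all other nuclei of Foxr2 p53LOF. There the median log2 ratio of all genes was 0.19, and 15.8% of all genes were at least 2-fold higher and 17.7% lower. Of 16 ERK feedback and response genes, which rise when the kinase cascade below receptor tyrosine kinases is active, 15 were at least 2-fold higher and 0 lower, with a median of 2.15. The 4 furthest were Fosl1 (2.95), Etv4 (2.88), Egr1 (2.77) and the pathway inhibitor Spry2 (2.77). Against OPC-like nuclei, which held more Pdgfra, 8 of the 16 were higher and 2 lower, with a median of 1.0 beside 0.34 for all genes, of which 24.7% were higher and 13.8% lower. Of 8 other growth factor receptors of glia, 4 were higher and 0 lower: Egfr (3.63), Met (2.69), Fgfr3 (2.26) and Fgfr1 (2.03). Over OPC-like nuclei 3 of the 8 were higher and 1 lower, with a median of 0.34 beside 0.34 for all genes. Over astrocyte-like nuclei 2 were higher and 1 lower, with a median of 0.10 beside 0.18 for all genes. Egfr stood at 376 CPM in vector-bearing, 15.5 in OPC-like and 30.3 in all other nuclei. Of 7 brakes on the receptor, 2 were higher and 0 lower, Lrig1 (3.12), which helps degrade receptor tyrosine kinases, and Socs3 (1.71).

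Of 28 compared receptor effectors, 4 were higher and 0 lower, namely Nras (1.69), Fyn (1.36), Gab1 (1.31) and Stat3 (1.09), and the median, 0.25, was near that of all genes. Among 8 compared genes of ligand processing and presentation, Plat (2.57), a protease that activates PDGF-CC, and Cspg4 (1.05), the NG2 proteoglycan that binds PDGF-AA, were higher, and Pcsk5 (-2.70) and Nrp1 (-2.15) were lower. Cspg4 was at 14.8 CPM in vector-bearing and 557 CPM in OPC-like nuclei, the same direction as Pdgfra. Cspg4 and Fyn were also markers used for naming, of OPC and COP, so their values are partly set by the naming. Of 4 compared chromosome neighbours of Pdgfra, Kit (1.47) was higher and Lnx1 (-1.53) lower, whereas Fip1l1 (0.51) and Chic2 (0.23) were not past 2-fold. Of 9 other class III and related receptor kinases with their ligands, 6 were higher and 2 lower. The 4 furthest were the myeloid receptors Flt3 (-5.08) and Csf1r (-3.42), and the ligands Kitl (2.62) and Vegfa (1.96). Csf1r was also an immune marker used for naming, so its ratio, too, is partly set by the naming.

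Finally, for each member the 5 genes with the most similar profile were found by Pearson correlation of log2(CPM + 1) over the 14 groups of class and library with at least 20 nuclei, among 15305 genes. The groups share 2 libraries and their depth, so these are descriptions. Pdgfra was nearest to Traf4 (0.94), Cav1, Sh3bp4, Inava and Pxdc1. Pdgfrb was nearest to Sod3 (0.93), Heph, Fzd6, Prex2 and Angptl4, and Pdgfd to Plscr2 (0.94), Usp53, Ccdc114, Acacb and Prex2. Pdgfb was nearest to Trim65 (0.95), Psma8, Lst1, Cmtm8 and Bst1. Pdgfa was nearest to BC049987 (0.81), Cyp20a1, the creatine transporter Slc6a8, the myelin gene Cnp and Phlda3, and Pdgfc to Zfp287 (0.90), Twsg1, Zfp931, Cdh10 and Adamts20. Between members, Pdgfrb and Pdgfd were the most alike (0.86), both high in endothelial-like and astrocyte-like groups, and Pdgfa and Pdgfb the least (-0.43).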

How the data were processed

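The authors aligned reads to mm10 with added vector sequences and made counts of UMIs per gene and cut sites per peak with Cell Ranger ARC 2.0.0, per the labels and the study's methods. The deposited counts were used as they stand. Members and lists were chosen with earlier results of these data known. Nuclei needed at least 400 genes, at least 400 fragments (peak counts divided by 2) and at most 5% mitochondrial UMIs. Upper limits on genes, UMIs and fragments were also set for each library. Doublets called by Scrublet were removed (353 and 540). The libraries were clustered together with scanpy 1.11.5 (2000 variable genes, 30 components, 20 neighbours, Leiden resolution 0.5), and clusters were named from marker lists. The vascular cluster was split again; 2 splits were tried, and the one with 10 neighbours at resolution 1.0 was taken after Pdgfrb by sub-cluster had been seen. Naming limits, the motifs and the peaks described were also chosen after the data were seen.

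Values are UMIs of a gene summed over a class per 1000000 UMIs (CPM), with exact Poisson intervals. Ratios have exact conditional intervals, and shares have Clopper-Pearson intervals. ATAC intervals count 2 cut sites as 1 fragment. Promoter peaks overlap the start sites in the feature list and 1000 bases on each side. No test was run. Library totals were 96929539 and 59719847 UMIs over 10379 and 10096 barcodes. The ratio and interval functions were tested on simulated data. The genes named were the 6 members, from each list at most the 4 with the largest absolute log2 ratio, and 5 similar genes per member.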

Additional observations from a re-analysis of the deposited data

How the results depend on the processing

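No paired analysis was possible because 1 library per genotype was compared and no test was run. Over 9 alternative settings, 1715 values were compared with those reported, of which 1399 stayed within the reported interval, 306 left it, and 10, log2 ratios whose interval excluded 0, changed sign. Another 19 ratios whose interval included 0 also changed sign. Clusters that met no naming limit drop out of their class in a setting: they held 7.84% of the Foxr2 p53LOF nuclei with the stricter minimum, 25.01% with doublets kept and 5.29% at resolution 1.0. With at least 1000 genes and 1000 peak counts per nucleus, Pdgfd in astrocyte-like nuclei of Foxr2 p53LOF was 359 CPM from 3 nuclei, since 106 of the 109 nuclei of the main astrocyte-like cluster then fell in an unnamed cluster of 204, with A2m and Pdgfd but also Il2ra, Ptprc and Gzmb among its leading genes. The immune-like share of Pdgfb was then 77.0%, the Pdgfra ratio between libraries over glia-like nuclei 0.21, and Pdgfd over immune-like nuclei turned to 0.50 (-0.18 to 1.24). With called doublets kept, Pdgfb in immune-like nuclei was 54.4 CPM, the vector-bearing share of Pdgfra 70.5%, and the Pdgfd ratio in astrocyte-like nuclei 2.29. At Leiden resolution 1.0, Pdgfb in immune-like nuclei was 71.6 CPM and held 66.3% of UMIs, and vector-bearing nuclei held 66.2% of Pdgfra. With peaks within 2000 bases, the Pdgfra promoter of vector-bearing nuclei had 39.1 ATAC CPM, against 32.1 as reported. Without thinning, 56.2% of vector-bearing nuclei had a Pdgfra UMI.

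On UMIs per nucleus in place of CPM, the ratios between libraries were 3.06 (Pdgfra, glia-like), -0.18 (Pdgfa, oligodendrocyte-like), 2.41 (Pdgfd, astrocyte-like) and 2.33 (Pdgfb, immune-like), and the vector-bearing ratios of Pdgfra were -1.51 (over OPC-like) and 3.99 (over oligodendrocyte-like). On that scale 6 ratios whose interval excluded 0 changed sign, as did 7 whose interval included it. The 6 were, between libraries in glia-like nuclei, Pdgfa to 1.46 and Pdgfd to 0.76, and of vector-bearing nuclei, Pdgfc to 0.88 over oligodendrocyte-like, 0.62 over immune-like and 0.30 over all other nuclei, and Pdgfd to 0.47 over immune-like nuclei. The nuclei of these classes differ in total UMIs, which CPM removes and UMIs per nucleus keep.

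Chosen after seeing the data, leaving out the 211 nuclei of immune-like clusters led by Hmga2, a gene that also leads the vector-bearing clusters, gave Pdgfb 66.8 CPM in immune-like nuclei. Those nuclei had 94.7 Pdgfra CPM and 379 GFP CPM, against 46.2 and 232 in the other 1717. The vector-bearing clusters were held fixed in that setting, with 2317 of their 2356 nuclei kept. The immune-like share with a vector count was 1.40% without those nuclei, and an astrocyte-like cluster with 4.59% would then have passed the limit at 3.28 times, against 2.11 times as reported. The coarser vascular split, the first one tried and added as an alternative after seeing the data, moved endothelial-like Pdgfrb in Foxr2 p53LOF to 315 CPM. Counting that astrocyte-like cluster as vector-bearing, also chosen after seeing the data, turned 3 ratios of vector-bearing nuclei: Pdgfd to 1.3 over immune-like and 1.25 over all other nuclei, and Pdgfrb to 0.66 over neuron-like nuclei (-0.04 to 1.37). A vector limit of 5 times kept the same 2 clusters, so it compares nothing and is not among the settings counted. Few nuclei limit the vascular values, and few UMIs the Pdgfrb and Pdgfd values of vector-bearing nuclei.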
